A study of Drosophila melanogaster with 28 samples.

Results

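The experiment was designed to measure trimethylation of lysine 27 on histone H3 (H3K27me3) in the tagged cells of germline tumours of the Drosophila melanogaster testis. It comprised the 3 libraries immunoprecipitated (IP) with an antibody against H3K27me3 and the 3 inputs of the same chromatin, chosen by their labels, 6 of the 28 libraries in the study. The germline tumour males carried y[1] and w[1118], the insertion P{hs70FLP}, the driver P{w[+mC]=GAL4::VP16-nanos.UTR} opposite UAS-Upd, and a single copy of UAS-FRT-H3-GFP-FRT-H3-mKO. The driver makes germ cells produce both Unpaired (Upd), the ligand of the JAK-STAT pathway, and the tagged histone H3. The cyst tumours used for comparison carried w[1118], traffic Jam-GAL4 opposite UAS-Upd, and the same UAS-FRT-H3-GFP-FRT-H3-mKO reporter, so excess Upd and tagged histone were common to all groups. Each preparation pooled about 18 to 20 pairs of testes. Cells were fixed with formaldehyde, an antibody against GFP directed protein A fused to micrococcal nuclease to chromatin holding the tagged histone, and the released chromatin was divided into input and IP. The method aims at cells in which the nanos driver was active, or which still held the tagged histone. The labels call their chromatin like that of germline stem cells. Whether chromatin of other cells contributed was not tested. Ages were not given in the sources used here.

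H3K27me3 is written by Polycomb repressive complex 2 and is bound by Polycomb repressive complex 1, and it typically covers whole genes or gene clusters rather than single start sites. In Drosophila its best known targets are the Hox clusters and genes for other developmental transcription factors, which it helps to keep silent in cells that do not use them. In flies the complexes are recruited by short DNA elements that bind factors such as Pleiohomeotic and GAGA factor, and in spermatocytes testis-specific TAF proteins are known to counteract Polycomb repression of spermatid genes.

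A few sequences show the regions on which the results below turn. They were read 5′ to 3′ on the forward strand of the RefSeq Release 6 plus ISO1 MT genome, the build of the deposited values. The first set comes from start site windows of developmental regulators in which IP exceeded input at least 1.5-fold in each replicate. In the first 4, capitals mark a match on either strand to GAGAGAG, a motif of the type that GAGA factor binds. In the last, capitals mark a match to GCCATNTT, a motif of the type that Pleiohomeotic binds. The pieces lie at chr2L:11358636-11358665 (salr), chr3L:9019460-9019489 (Doc2), chr3R:29556412-29556441 (Dr), chr2L:5461436-5461465 (mid) and chr3L:1101497-1101526 (bab1).
salr: ctctgccgccaGAGAGAGcgactggttaga
Doc2: gctgactatcaCTCTCTCtctctctctctc
Dr: agaggacgtgtCTCTCTCtggaaataaata
mid: aattggaaaacGAGAGAGcgagtggcgttt
bab1: cgagcccgttgAAAATGGCtgaaaacggcg
The next set contrasts the base composition of bins at the ends of the IP over input scale, with G and C in capitals. Each is the middle of a 5-kb bin. The Ets21C piece (chr2L:547486-547515) and the jim piece (chr3L:22837486-22837515) come from bins with IP above input in each replicate. The Mitf piece (chr4:1197486-1197515) and the chrb piece (chr3L:11497486-11497515) come from bins with IP below input in each.
Ets21C: GGCCGGGtCtaCGCCGGCtGtCCCaCCttG
jim: aCaGtCGGCGGaGaCaGGGtaaCttCGaGC
Mitf: aGatCattCtGCCaCataGatatCttataa
chrb: aCCttattaaCtaaCtaaatGtGaaCataa

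The depth of the 3 pairs differed widely. The IP libraries held 942943, 3050867 and 12640531 recovered fragments in replicates 1, 2 and 3, and the inputs 5713467, 3936118 and 13012231. A 5-kb bin held a median of 37, 127 and 535 IP fragments, and 26091 of 27509 bins had the mean of at least 10 fragments per library needed for testing. Values below are the deposited signal, scaled so that the autosomal median is 1 in each library, or the log2 ratio of IP over input after adding 0.1 to each. The median counting error of a bin's log2 ratio was 0.26, 0.17 and 0.09 in replicates 1 to 3, and the SD over bins was 0.64, 0.36 and 0.27. Such errors cover counting only, and since the labels do not say that replicates came from separate crosses or days, p-values measure the spread between these samples alone. Replicate 3 was sequenced on another flow cell than replicates 1 and 2, so values without replicate 3 are those within a flow cell.

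The label was checked against the other libraries and the transgenes. Over the 7 germline inputs the exons of upd1, the gene for the Upd ligand, stood 0.41 ± 0.22 (SD, n = 7) above the rest of the locus on the log2 scale, against 0.46 ± 0.47 (SD, n = 7) in cyst inputs. Both tumours carry UAS-Upd, so upd1 cannot tell them apart. The nanos 3′ UTR was also measured, since the germline driver names a nanos UTR. It stood 0.72 ± 0.45 (SD, n = 7) above the rest of nanos in germline inputs. In cyst inputs it stood 0.64 ± 0.30 (SD, n = 7) above, so it did not separate the tumours. Chromatin holds no RNA, so germline identity could be read only from H3K4me3, a mark of active start sites, in germline tumours. Of 6 germline marker genes, 2 (nanos and zpg) had H3K4me3 above input at the start site in both replicates and 3 (vas, aub and AGO3) had it below. All 3 cyst lineage markers (tj, zfh1 and eya) and all 3 hub markers (upd1, Fas3 and hh) had it above. Of 3 spermatocyte markers 1 had it above and 1 below, and of 2 housekeeping genes 1 had it above and 0 below. Over all start windows the median H3K4me3 ratio was 0.21 and 0.23, so a value above input was common. The marker genes therefore did not separate the labelled cell type from its neighbours, and germline markers had H3K4me3 above input less often than cyst lineage and hub markers.

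Replicate 2 stood apart from the other pairs. After a correction for GC content, its log2 ratio across 5-kb bins had a Spearman correlation of 0.53 with replicate 1 of the germline H3K9me3 experiment and of 0.44 with replicate 1 of cyst H3K27me3, against 0.26 and 0.20 with replicates 1 and 3 of its own group. H3K9me3 is the mark of constitutive heterochromatin. These libraries have inputs of their own, bins of 1 genome are not independent, and whether a shared preparation lies behind the likeness was not tested. Whether the labels of replicate 2 are right was not tested either. Values without replicate 2 are given for the counts of calls, chromosome 4, the Hox and engrailed regions and the regulator counts, and not for single bins or genes.

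A dependence on base composition was common to the 3 replicates. In the tenth of bins poorest in G and C, the median log2 IP over input was -0.86, -0.42 and -0.43 in replicates 1 to 3. In the tenth richest in G and C it was 0.73, 0.11 and 0.24. The 3 replicates thus ran in the same direction, with the widest span in the shallow replicate 1. Germline H3K4me3 ran the same way, from -0.51 and -0.38 to 0.52 and 0.43, whereas germline H3K9me3 stayed between -0.06 and 0.05 at both of these ends. Across all tested bins the log2 ratio had a Spearman correlation with GC content of 0.70, 0.38 and 0.69 in replicates 1 to 3. With germline H3K4me3 replicate 1 it was 0.64, 0.35 and 0.67, so replicates 1 and 3 resembled an active mark and GC content more than they resembled each other (0.51).

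**Figure D1:**
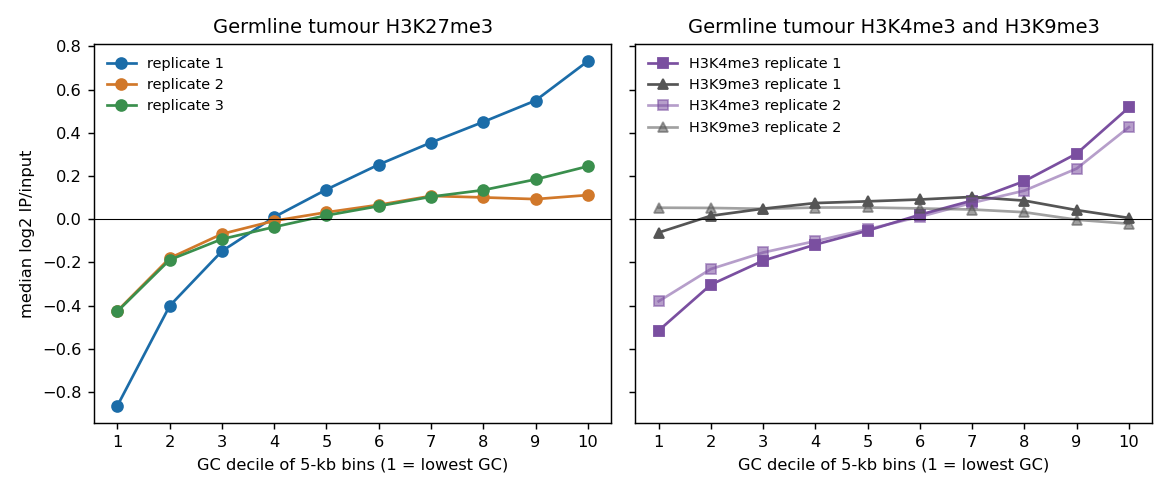
Median log2 IP over input of 5-kb bins (vertical axis) in 10 groups of rising GC content (horizontal axis), with 1 line per replicate of germline H3K27me3 (left) and of germline H3K4me3 and H3K9me3 (right). The H3K27me3 lines rise from -0.86, -0.42 and -0.43 in the poorest group to 0.73, 0.11 and 0.24 in the richest, and the H3K4me3 lines rise as well.

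Agreement between replicates was partial at the level of bins. The Spearman correlation of log2 IP over input was 0.46 between replicates 1 and 2, 0.51 between 1 and 3, and 0.42 between 2 and 3. After correction for GC content it was 0.26, 0.03 and 0.20. Of the 261 bins that make up the highest 1% in each replicate, 40 were shared by replicates 1 and 2, 9 by 1 and 3, 10 by 2 and 3, and 5 by all. Of the lowest 1%, 32, 58 and 72 were shared by the same pairs and 16 by all. When the 261 highest bins were picked from replicates 1 and 2, their median in replicate 3, which took no part in the choice, was 0.28 against 0.02 over all bins. Picked from replicates 2 and 3 they had a median of 0.95 in replicate 1, against 0.17 over all bins, and picked from 1 and 3 a median of 0.43 in replicate 2, against -0.02. Of the bins so picked, at least 93.9% lay above the median of all bins in the replicate left out. They had a mean GC content of 49.0% to 50.8%, against 42.2% over all bins. With GC-corrected values the held-out medians were 0.93, 0.39 and 0.41 in replicates 1, 2 and 3, against 0.13, 0.06 and 0.04 over all bins, and these bins were AT-rich, with a mean GC content of 34.6% to 36.0%. The lowest bins picked in the same way had held-out medians of -1.18, -0.72 and -0.74 as deposited, but of -0.13, -0.17 and -0.01 after GC correction. After correction 25 of 261 highest bins and 3 of 261 lowest bins were shared by all replicates. The high end was thus partly held in common with and without the correction, by bins of different composition, and the low end mainly without it.

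The question the bins address is where the mark forms broad domains in these cells. Without pairing, limma called 0 of 26091 bins higher and 0 lower in IP than in input (0% in each direction, at an adjusted p under 0.05 and a fold over 1.5). At an unadjusted p under 0.05, 436 bins were higher and 974 lower. edgeR on the recovered fragments called 0 in either direction, with 284 higher and 1028 lower at the unadjusted p, and DESeq2 called 0, with 442 higher and 1179 lower. With the pair as a block, which takes each IP against its own input, limma called 12 bins higher (0.046%) and 381 lower (1.46%). Without replicates 1, 2 or 3 these counts were 20, 150 and 114 higher and 788, 611 and 562 lower. With block and GC correction together it called 0 in either direction (0%), with 329 higher and 116 lower at the unadjusted p. Paired calls at this bin width therefore did not outlast the correction for base composition.

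Plain counts of agreement ran in the opposite direction to the paired calls, except at the 1.5-fold threshold. All 3 IP values lay above all 3 inputs in 4200 bins (16.1%) and below them in 2137 (8.19%). The log2 ratio was above 0 in each replicate in 7326 bins (28.1%) and below 0 in each in 5398 (20.7%). At a difference of 1.5-fold or more in each replicate, by contrast, 5 bins were higher (0.0192%) and 361 lower (1.38%). The 5 high bins lay apart from one another, so no run of 2 or more adjoining bins, the rule used here for a domain, was found on the high side. On the low side 142 bins lay in 49 runs, of which the longest had 8 bins. At a lower threshold of 0.3 on the log2 scale, 632 bins in all were higher in each replicate, and 153 of them lay in 67 runs of at most 5 bins.

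The 5 high bins are a description, since they were picked by these values. The bin at chr3L:22835001-22840000, over jim, which encodes a zinc finger protein, and 2 unnamed neighbours, CG11226 and CG45428, had input signals of 1.33, 0.863 and 1.15 and IP signals of 2.60, 1.44 and 1.84 in replicates 1 to 3. Each IP lay above every input, with log2 ratios of 0.92, 0.68 and 0.63. The bin at chr2R:11525001-11530000, over engrailed (en), a homeodomain gene that marks posterior compartments and a classic Polycomb target, had inputs of 0.731, 0.519 and 0.755 and IPs of 1.71, 0.842 and 1.41. Its ratios of 1.13, 0.61 and 0.82 became 0.46, 0.51 and 0.58 after GC correction, and in cyst tumours they were 0.60, 0.49 and 0.59. The other germline marks were raised in the en bin too, H3K4me3 at 0.64 and 0.87 and H3K9me3 at 0.39 and 0.52. The bin at chr2L:545001-550000, over the acetylcholine receptor gene nAChRbeta3 and the Ets transcription factor gene Ets21C, had ratios of 1.20, 0.59 and 0.59, and in cyst tumours 1.12, 1.14 and 0.66. The bin at chr2R:24505001-24510000 (CG13581 and Letm1, a mitochondrial carrier gene) had ratios of 0.61, 0.65 and 0.60, against 0.14, 0.07 and -0.11 in cyst tumours. The last, at chrX:23370001-23375000, held no protein-coding gene, and its input signal was low, at 0.2, 0.1 and 0.17. After GC correction the jim bin had ratios of 0.30, 0.59 and 0.41 and the Ets21C bin 0.28, 0.38 and 0.27. The corrected ratios of the Letm1 bin were 0.16, 0.61 and 0.44, and those of the X bin 0.95, 0.64 and 0.31. With the block, the adjusted p in limma was 0.021 for the jim bin, 0.0423 for the en bin and 0.0487 for the X bin. The Letm1 bin (0.0663) and the Ets21C bin (0.0706) did not pass. For the jim bin it was 0.39 without the block and 0.477 with block and GC correction. The 1.5-fold threshold is 0.585 on the log2 scale, so the Ets21C bin, at 0.588 in its lowest replicate, was the member just inside it.

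The longest runs at the lower threshold covered dpr12, a neuronal immunoglobulin domain gene (chr2R:5815001-5840000), and futsch, which encodes a neuronal microtubule-associated protein (chrX:1410001-1435000), with 5 bins each. In the dpr12 run the mean log2 ratios were 0.84, 0.52 and 0.37 in replicates 1 to 3, and in the futsch run 0.89, 0.37 and 0.42. The run of 4 bins over the transcription factor gene broad (br) and Mur2B had ratios of 1.01, 0.66 and 0.44. These runs had a GC content of 47.5% to 49.9%. Corrected for GC content, the br run kept 0.37, 0.57 and 0.21, and germline H3K4me3 over it was 0.60 and 0.27.

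The low bins were concentrated on chromosome 4, the small, largely heterochromatic autosome. Of the 381 bins called lower with the block, 129 lay there, which is 50.6% of the 255 tested bins of that chromosome. The 381 bins had median log2 ratios of -1.46, -0.92 and -0.86 in replicates 1 to 3 and a median GC content of 33.3%. After GC correction their medians were 0.03, -0.14 and -0.06. The bin at chr4:1195001-1200000, over PIP4K, a phosphoinositide kinase gene, and Mitf, a transcription factor gene of lysosome biogenesis, had ratios of -2.14, -2.15 and -1.84 (adjusted p = 0.00364, limma with the block). After GC correction they were 0.20, -0.86 and -0.34, so the sign of replicate 1 turned. Outside chromosome 4, the bin at chr2R:1520001-1525000 over Maf1, a repressor of RNA polymerase III, had -1.72, -1.27 and -1.75 and kept -0.46, -0.68 and -1.13 after correction. The bin over chrb, a growth inhibitor gene, had -1.61, -1.38 and -1.51, and after correction 0.24, -0.41 and -0.45, so replicate 1 turned there too.

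Chromosome 4 as a whole was lower in each IP. Its share of signal was 1.21%, 1.96% and 1.36% in the inputs and 0.423%, 1.29% and 0.775% in the IPs, so the highest IP share overlapped the lowest input share (exact two-sided permutation p = 0.2, with 0.1 the smallest that 3 against 3 allows). Its median log2 ratio was -0.88 ± 0.37 (SD, n = 3), with -1.29, -0.60 and -0.74 in replicates 1 to 3 and a mean of -1.01 without replicate 2. Its median GC content was 34.4%, and after GC correction the medians were -0.05, 0.00 and -0.12. The same chromosome had -0.45, -0.40 and -0.18 in cyst H3K27me3, -0.58 and -0.40 in germline H3K4me3, and -0.11 and 0.01 in germline H3K9me3. The Y chromosome had -0.30, -0.07 and -0.20 (exact p = 0.3), and the X chromosome 0.18, -0.08 and -0.03 (exact p = 0.4), which differed in sign between replicates. Chromosome arm 3R took 26.3%, 25.6% and 26.2% of the inputs and 27.7%, 26.4% and 26.9% of the IPs. These did not overlap, and the exact permutation p of 0.1 was the smallest possible. After GC correction the median ratio of 3R was 0.14, 0.07 and 0.05, close to the 0.13, 0.06 and 0.04 over all bins.

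**Figure D2:**
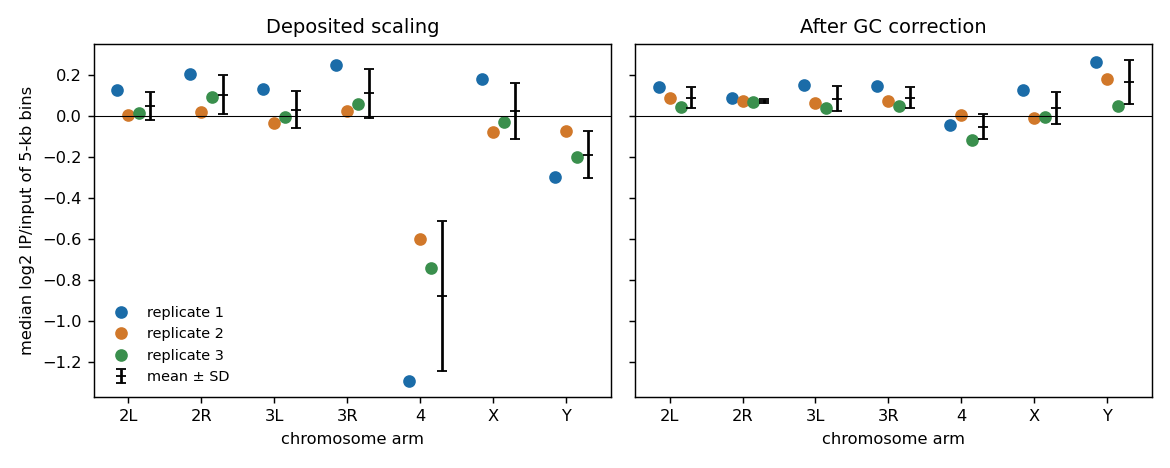
Median log2 IP over input of 5-kb bins (vertical axis) for each chromosome or arm (horizontal axis), as deposited (left) and after GC correction (right), with 1 point per replicate and bars for the mean and SD. Chromosome 4 lies at -1.29, -0.60 and -0.74 as deposited and at -0.05, 0.00 and -0.12 after correction, while the large arms stay near 0.

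Wider bins gave calls of another kind. At 25 kb, 5441 bins were tested, and without the block 0 were called in either direction by limma (0%), with 9 higher and 109 lower at an unadjusted p under 0.05. With the block 9 were higher (0.165%) and 133 lower (2.44%). With block and GC correction 16 were higher (0.294%) and 1 was lower (0.0184%). Of the 16, 5 lay on the Y chromosome and 5 on the X, with a GC content of 29.7% to 36.8%, and few held a protein-coding gene (tyn, G9a with CG3038, AstA-R1, Myo81F and WDY). Their uncorrected ratios were mostly at or below 0, for example -0.44, -0.32 and -0.29 over tyn. They thus stood above the curve fitted to GC content and mostly not above input. That curve was fitted over all tested bins, and bins matched for composition were not compared. After correction the 25-kb ratio still had a Pearson correlation with GC content of -0.09, -0.05 and -0.13 in replicates 1 to 3.

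The Hox clusters served as the textbook test of the mark. The bithorax complex, from Ubx to Abd-B at chr3R:16656623-16972236, holds the 3 Hox genes that pattern the posterior trunk. Its mean signal was 0.927, 1.02 and 0.974 in the inputs and 1.40, 1.10 and 1.04 in the IPs. All IPs lay above all inputs (exact two-sided permutation p = 0.1, the smallest possible). The log2 ratio, here of mean signals with nothing added, was 0.60, 0.11 and 0.09, or 0.27 ± 0.29 (SD, n = 3), so most of the mean came from the shallow replicate 1. Of 392 genome stretches of like length, 9, 45 and 112 were higher in replicates 1 to 3, and after GC correction 0, 23 and 21. The flanks of 200 kb on each side had 0.29, -0.07 and 0.06, which left the complex 0.31, 0.18 and 0.03 above them. The complex was more AT-rich than its flanks, at 41.6% against 43.4% GC, and the mean corrected ratio of its bins was 0.54, 0.15 and 0.12. In cyst tumours the complex had 0.10, 0.35 and 0.23, in germline H3K9me3 0.27 and 0.26, and in germline H3K4me3 -0.01 and -0.03. Its difference from the flanks was 0.36 and 0.35 in germline H3K9me3, no smaller than in H3K27me3, and -0.12 in both replicates of germline H3K4me3. Leaving out replicate 2, the ratios that remained were 0.60 and 0.09.

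**Figure D3:**
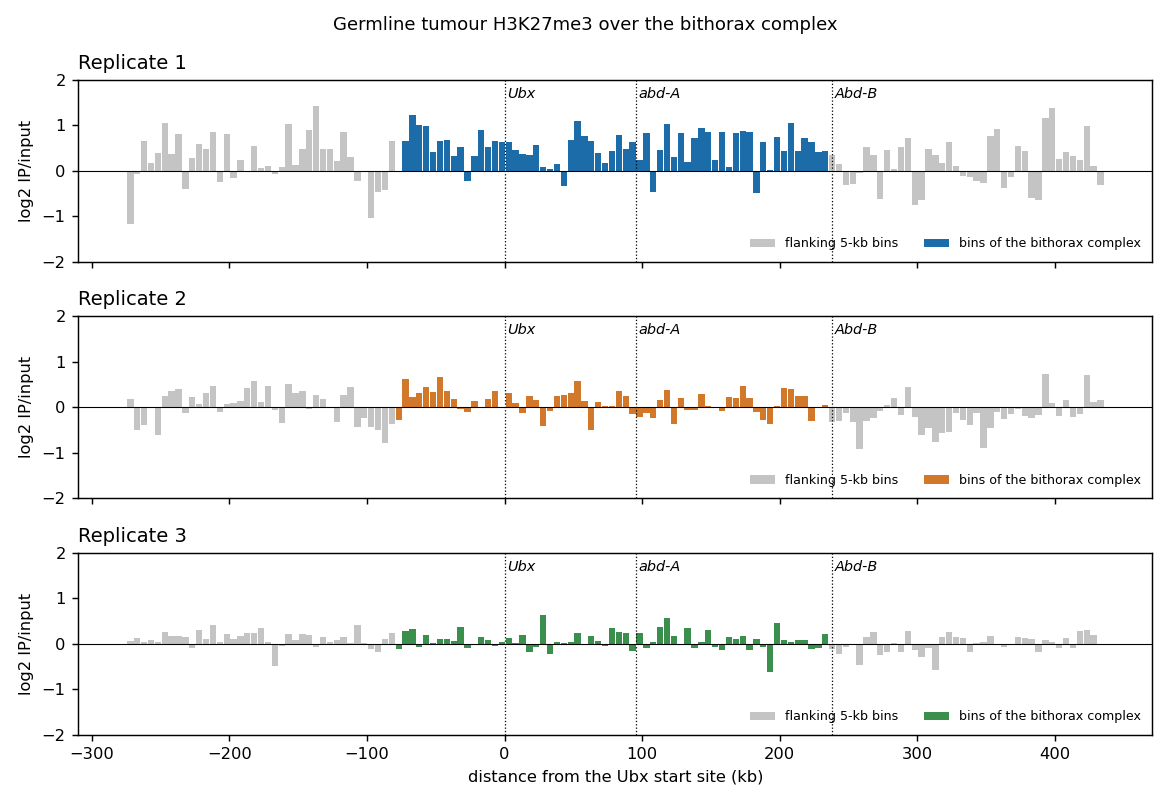
Log2 IP over input of 5-kb bins (vertical axis) against distance from the start of Ubx in kb (horizontal axis), 1 panel per replicate, with coloured bars for the bithorax complex, grey bars for its flanks and dotted lines at the starts of the 3 Hox genes. Bars of the complex lie mostly above 0 in replicate 1 and close to 0 in replicates 2 and 3, as in the ratios of 0.60, 0.11 and 0.09 over the whole complex.

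The Antennapedia complex, from lab to Antp at chr3R:6661427-6999228, holds the 5 Hox genes of the head and anterior trunk. Its inputs were 0.944, 1.12 and 1.04 and its IPs 1.38, 1.14 and 0.960. The groups overlapped and replicate 3 lay below its input, with log2 ratios of 0.54, 0.02 and -0.11 (exact p = 0.4). Of 366 stretches of like length, 18, 95 and 297 were higher in replicates 1 to 3, and after GC correction 0, 85 and 354. The pair of homeodomain genes inv and en, at chr2R:11474465-11528210, had inputs of 0.994, 0.960 and 1.02 and IPs of 1.51, 1.09 and 1.30, without overlap (exact p = 0.1). Its log2 ratio was 0.38 ± 0.21 (SD, n = 3), and it lay above its flanks by 0.43, 0.27 and 0.22. This was the region, of the 3 examined, that exceeded its flanks by over 0.2 in every replicate, and the difference after GC correction was 0.26, 0.22 and 0.14. The corrected difference of the bithorax complex was 0.49, 0.23 and 0.11, so the distinction held only for uncorrected values. Without replicate 2 the mean ratio of inv and en was 0.48. In cyst tumours the uncorrected difference of inv and en from their flanks was 0.23, 0.31 and 0.19. In germline H3K9me3 it was 0.33 and 0.27, and in germline H3K4me3 0.11 and 0.16, so an excess over the flanks was not particular to H3K27me3. For inv and en in germline tumours, 202, 242 and 28 of 2282 stretches of like length were higher in replicates 1 to 3. After GC correction the counts were 429, 528 and 7.

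Over gene bodies limma called 0 of 13661 genes higher and 0 lower (0%), with 553 higher and 341 lower at an unadjusted p under 0.05. With the block it again called 0 in either direction (0%), with 1175 and 567 at the unadjusted p, and with block and GC correction 0 (0%), with 519 and 129. edgeR without the block called 0, with 314 higher and 612 lower at the unadjusted p, and DESeq2 called 0 higher and 2 lower. All 3 IPs lay above all 3 inputs over 2078 gene bodies (15.2%) and below over 968 (7.09%). The ratio was above 0 in each replicate for 4565 (33.4%) and below 0 in each for 1769 (12.9%). At 1.5-fold or more in each replicate, 64 were higher (0.468%) and 135 lower (0.988%).

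Developmental transcription factor genes, the classic Polycomb targets, had IP above input more often than gene bodies at large. Of 83 such regulators, 38 (45.8%) had all IPs above all inputs over the body, against 15.2% of all genes, and 0 had all IPs below. Their median log2 ratio was 0.70, 0.17 and 0.10, against 0.36, -0.04 and 0.12 over all genes, so in replicate 3 the median was not above that of all genes. With GC-corrected values 36 (43.4%) kept this order, against 16.1% of all genes. Without replicates 1, 2 or 3 the count was 42, 52 and 58, against 30.4%, 31.3% and 25.0% of all genes, and 5, 2 and 1 bodies then had all IPs below. The list had a GC content near that of all genes, 45.4% against 45.7%. Germline H3K9me3 over the same bodies lay 0.36 and 0.30 above its own median over all genes, and the part of that shared signal in the counts was not tested.

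Among single regulators, engrailed had body input signals of 0.731, 0.569 and 0.700 and IP signals of 2.13, 0.847 and 0.998. All IPs lay above all inputs, with log2 ratios of 1.42, 0.50 and 0.46 (limma adjusted p = 0.508). The pair-rule gene paired (prd) had inputs of 0.612, 0.571 and 0.496 and IPs of 2.15, 0.948 and 0.846, with ratios of 1.66, 0.64 and 0.67 (adjusted p = 0.508). It was the only 1 of the 83 to reach 1.5-fold in each replicate over the body. The pair-rule gene even-skipped (eve) had ratios of 1.92, 0.86 and 0.10, and hedgehog (hh), a signalling ligand gene, 0.93, 0.17 and 0.26. The Wnt ligand gene wingless (wg) had 0.41, 0.06 and 0.18, and invected (inv) 0.35, 0.11 and 0.31. For en, prd, eve, hh, wg and inv the groups did not overlap, although the ratio of at least 1 replicate was small for the last 4.

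Of the 8 Hox genes, Ubx and abd-A (25%) had all IPs above all inputs over the body, against 15.2% of all gene bodies. Ubx had inputs of 0.984, 1.01 and 1.01 and IPs of 1.58, 1.20 and 1.08, with ratios of 0.63, 0.23 and 0.09. The posterior gene Abd-B had 0.55, 0.07 and 0.03, and Antp 0.60, 0.20 and -0.02. lab had 0.47, 0.19 and 0.03, Dfd 0.43, 0.11 and -0.06, Scr 0.27, 0.07 and -0.12, and pb 0.50, -0.03 and -0.22. The trunk genes of the bithorax complex thus lay above 0 in each replicate, as did 33.4% of all gene bodies, whereas 4 of the 5 genes of the Antennapedia complex fell below 0 in replicate 3.

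Start site windows, 500 bp to each side of the annotated start, were measured because a gene body can dilute a local signal. Without the block limma called 0 of 13677 windows higher and 0 lower (0%), with 398 higher and 1017 lower at an unadjusted p under 0.05, and edgeR and DESeq2 also called 0, with 672 and 467 higher and 770 and 516 lower at that p. With the block it called 2 higher (0.0146%) and 164 lower (1.2%). Without replicates 1, 2 or 3 these counts were 0, 6 and 3 higher and 0, 3 and 265 lower, so the low calls rested on replicates 1 and 2. With block and GC correction it called 0 (0%), with 81 higher and 335 lower at the unadjusted p. All IPs lay above all inputs in 1173 windows (8.58%) and below in 1367 (9.99%). The ratio was above 0 in each replicate in 2347 (17.2%) and below in 2475 (18.1%), and at 1.5-fold in each 100 were higher (0.731%) and 342 lower (2.5%).

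Both windows called higher with the block belong to homeobox or zinc finger regulators. The window of odd-paired (opa), a zinc finger gene of segmentation, had log2 ratios of 1.56, 1.08 and 1.66 (adjusted p = 0.0385, limma with the block), and its body 0.61, 0.40 and 0.35. The window of unplugged (unpg), a homeobox gene of the nervous system, had ratios of 2.05, 1.79 and 1.07 (adjusted p = 0.0413), on 20, 26 and 87 IP fragments and 30, 7 and 39 input fragments. Germline H3K4me3 was above input in the same windows, by 1.42 and 0.74 at opa and by 1.08 and 1.55 at unpg.

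Of the 83 regulators, 35 start site windows (42.2%) had all IPs above all inputs, against 8.58% of all windows, and 0 had all below. The list median was 0.82, 0.27 and 0.60, against 0.06, -0.35 and 0.14 over all windows. After GC correction 12 (14.5%) kept the order, against 4.83% of all. The windows of the list were richer in G and C, at a median of 47.8% against 42.4%. Germline H3K4me3 in these windows lay 0.23 and 0.15 above its median over all windows, germline H3K9me3 0.42 and 0.31 above, and cyst H3K27me3 0.45, 0.53 and 0.44 above. Without replicates 1, 2 or 3 the count was 41, 62 and 46, against 16.8%, 27.0% and 14.9% of all windows, and 3, 0 and 4 windows then had all IPs below. After GC correction 1 did.

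In 13 of the 83 windows the ratio reached 1.5-fold in each replicate, against 0.731% of all windows. In 1, that of the eye regulator eyeless (ey) on chromosome 4, it was at or below the opposite threshold, at -2.87, -1.49 and -0.78 (adjusted p = 0.0488, limma with the block). The 13 belong to the homeobox genes otp, unpg, en, Dr, eve and slou, the T-box genes Doc2, Doc3 and mid, the zinc finger genes salr, wor and odd, and bab1, which encodes a BTB domain protein. The window of orthopedia (otp), a gene of brain and hindgut development, had inputs of 0.633, 0.359 and 0.690 and IPs of 2.14, 0.885 and 1.57, with ratios of 1.61, 1.10 and 1.08. The window of spalt-related (salr) had inputs of 1.06, 0.656 and 1.11 and IPs of 2.14, 1.52 and 2.27, with ratios of 0.95, 1.10 and 0.97, the 3 replicates lying close together. That of Doc2, a gene of heart and amnioserosa development, had inputs of 1.15, 0.703 and 0.907 and IPs of 3.57, 1.42 and 1.79. In 11 of the 13 windows every IP lay above every input, and those of Dr and mid overlapped. The en window had inputs of 0.847, 0.578 and 0.867 and IPs of 1.86, 1.10 and 2.26. In replicate 1 the 13 windows held only 10 to 25 IP fragments each. Of the 13, 9 were above 0 in all replicates after GC correction. Over the body 10 were above 0 in all replicates, against 33.4% of all gene bodies. These counts, and that of windows without overlap, come from the libraries that picked the 13 and are not independent of the choice. In cyst tumours 9 were above 0 in all 3 replicates, where the medians over all windows were -0.34, -0.15 and -0.16. H3K4me3 was above input in both germline replicates in 13 of 13, by 0.40 to 1.55. Its medians over all windows were 0.21 and 0.23. The share of all windows above 0 is not given here for cyst tumours, H3K4me3 or GC-corrected values, so these counts have no share to be read against. The 13 windows had a GC content of 48.8% to 59.7%, against a median of 42.4% over all windows. In the tenth of 5-kb bins richest in G and C, the medians were 0.23, 0.27 and 0.20 in cyst H3K27me3 and 0.52 and 0.43 in germline H3K4me3.

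**Figure D4:**
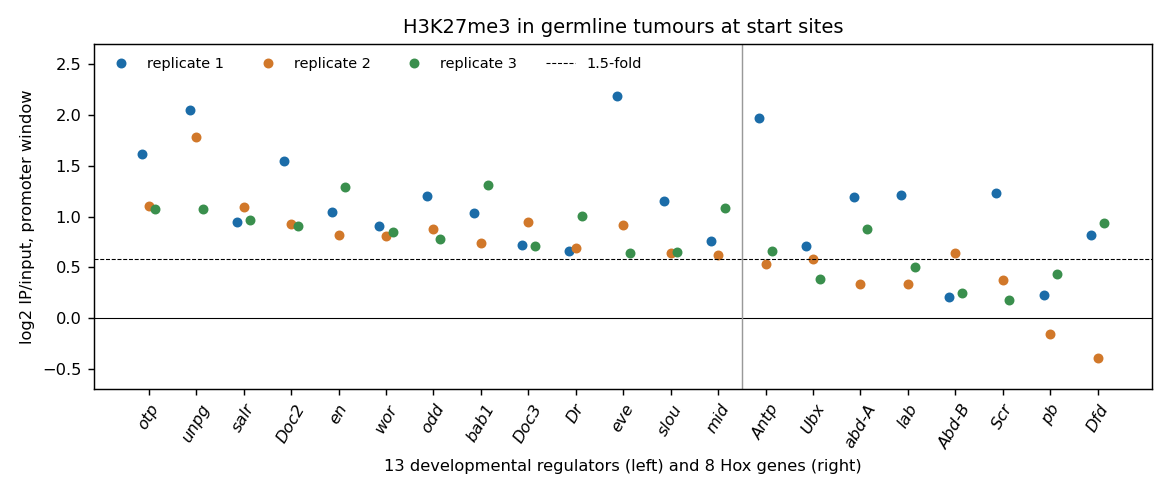
Log2 IP over input in the start site window (vertical axis) of the 13 developmental regulators and the 8 Hox genes (horizontal axis), with 1 point per germline replicate. The 13 lie above the dashed 1.5-fold line (0.585) by the rule that picked them, with replicate 1 from 0.66 to 2.18, while each Hox gene has at least 1 replicate below the line.

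The salr, Doc2, Dr, mid and bab1 sequences printed above come from these windows. GAGAGAG on either strand was found in 43 of the 83 regulator windows (51.8%), in 8 of the 13 (61.5%), in 5 of the 8 Hox windows (62.5%) and in 1639 of all 13677 windows (12.0%). It was found in 10 of the 164 windows called lower with the block (6.10%). GCCATNTT on either strand was found in 24 of the 83 (28.9%), 5 of the 13 (38.5%), 4 of the 8 Hox windows (50%) and 18.3% of all windows. In the 5-kb bins of the bithorax complex it was found in 51 of 63 (81.0%), against 64.4% of all tested bins. Among the 12 bins called higher with the block it was found in 58.3%, and GAGAGAG in 33.3%, against 42.9% of all tested bins. The shared motif letters describe the windows and do not show that a factor was bound.

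The mean signal of the regulators over input was higher beside the start than 1.25 kb away. In 500-bp pieces, the log2 ratio of their mean IP signal over their mean input signal just upstream of the start, centred at -0.25 kb, was 0.90, 0.28 and 0.79 in replicates 1 to 3. Just downstream, at 0.25 kb, it was 0.83, 0.19 and 0.39, at 1.25 kb it was 0.53, -0.07 and -0.07, and at -1.25 kb 0.31, -0.08 and 0.11. The pieces between did not form a simple peak. At 0.75 kb the ratio was 0.99, 0.04 and -0.04, so replicate 1 was highest there. At -0.75 kb it dipped to -0.01, -0.59 and -0.12, below all genes, which had 0.18, -0.24 and 0.06. Over all genes the ratio was -0.11, -0.60 and 0.02 at -0.25 kb and 0.24, -0.15 and 0.25 at 0.25 kb. At 1.25 kb the regulators in replicate 3, the deepest, lay below all genes, which were at 0.04. Germline H3K4me3 replicate 1 over all genes also peaked downstream of the start, at 0.52.

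**Figure D5:**
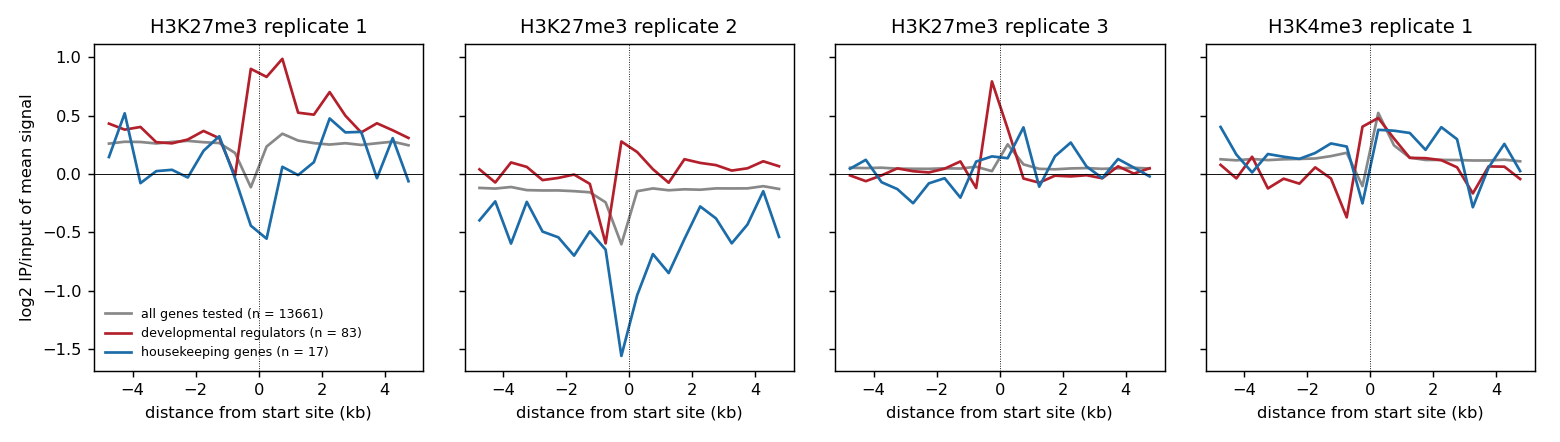
Log2 IP over input of the mean signal in 500-bp pieces (vertical axis) against distance from the annotated start in kb (horizontal axis) for all genes, developmental regulators and housekeeping genes, with 1 panel per H3K27me3 replicate and 1 for H3K4me3 replicate 1. The regulators lie above all genes at -0.25 kb in each H3K27me3 replicate (0.90, 0.28 and 0.79 against -0.11, -0.60 and 0.02), and housekeeping genes dip to -1.56 there in replicate 2.

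Housekeeping and germline genes had no start window with all IPs above all inputs. Of all windows 8.58% had this order, so 0 is near that share in lists this small. The list medians differed in sign between replicates. Over all start windows the median ratio was 0.06, -0.35 and 0.14, and 9.99% lay entirely below the inputs. For 17 housekeeping genes the median start site ratio was -1.06, -1.39 and 0.08, with 4 windows (23.5%) entirely below the inputs and 0 above. For 16 germline genes it was -0.20, -0.84 and 0.05, with 2 windows (12.5%) below, near the share of all windows, and 0 above. The start window of zpg, a germline gap junction gene, was above 0 in each replicate, at 0.87, 0.09 and 0.83. The start window of vasa (vas), which encodes the germ cell RNA helicase, had ratios of -2.37, -1.16 and -0.84 with all IPs below all inputs, and H3K4me3 there was also below input, at -0.98 and -1.01. AGO3, a gene of the piRNA pathway, had -2.35, -1.46 and -1.51 (adjusted p = 0.0402, limma with the block). The translational regulator nanos had 0.14, -0.51 and 0.35 at its start and -0.75, -0.59 and 0.11 over its body. The differentiation factor bam had 1.07, -0.68 and -0.17 over its body, so the replicates disagreed in sign. Act5C had -0.35, -0.40 and 0.35 and Gapdh1 0.18, -0.72 and 0.36, which overlapped the inputs.

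Genes of the somatic and later lineages gave mixed values. The shares to read these counts against are 15.2% of all gene bodies with all IPs above all inputs and 7.09% with all below. Over gene bodies 1 of 8 cyst lineage genes had all IPs above all inputs and 1 all below. Traffic jam (tj), the transcription factor of cyst cells, had 1.03, -0.13 and -0.34, zfh1 had 0.12, -0.05 and 0.33, and eya 0.68, 0.13 and 0.32. Of 7 JAK-STAT genes 1 was higher, and the start window of upd1 had 1.77, 1.67 and 0.72, with all IPs above all inputs. Of 12 meiotic arrest genes, which switch on the spermatocyte programme, 4 bodies were higher and 1 lower. Of 20 spermatid genes 2 were higher (10%) and 1 lower, which is no more than among all genes, and the sperm tail gene Mst87F had 0.94, 0.60 and -0.53. aly, a meiotic arrest gene, had 0.87, -0.02 and 0.39. None of the 5 Polycomb repressive complex 2 genes was higher or lower over the body, and 1 of 6 complex 1 genes was higher.

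The gene bodies at the top of the list are described by the values that picked them. The 12 with the highest mean ratio, among gene bodies at 1.5-fold or more in each replicate, included the digestive protease genes Jon25Biii, Jon66Ci and epsilonTry, the eggshell gene Cp15, the cytochrome P450 gene Cyp6a2, the odorant-binding protein gene Obp99d, the lysozyme gene LysS and the cuticle gene TwdlN. The other 4 were CG11298, CG7294, CG14720 and CG12538. Jon25Biii had inputs of 0.386, 0.229 and 0.399 and IPs of 1.74, 0.985 and 0.811, with ratios of 1.92, 1.72 and 0.87. All IPs lay above all inputs in 10 of the 12. The 12 genes were 492 to 1743 bp long, had a GC content of at least 51.2% and held 9 to 33 IP fragments in replicate 1. Several belong to gene families, and how the authors treated reads that map to more than 1 copy is not given in the sources used here. Of 93 cuticle genes 42 had all IPs above all inputs, against 15.2% of all gene bodies and 45.8% of the developmental regulators, with medians of 1.09, 0.45 and 0.18 and a GC content of 49.5%. Of 177 chemoreceptor genes 52 did, against the same 15.2%, with medians of 0.31, 0.27 and 0.21.

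The 6 lowest gene bodies were CG4186, Fis1, BomS5, CG46466, Tsen15 and CG33941. Fis1, a gene of mitochondrial fission, had ratios of -3.55, -1.93 and -0.72, and its IP in replicate 1 held 0 fragments. All IPs lay below all inputs in 6 of the 6, whose GC content was 30.2% to 36.6% and whose IP in replicate 1 held 0 or 1 fragments. On chromosome 4, 79 of 80 gene bodies had a ratio below 0 in each replicate, against 12.9% of all gene bodies, with medians of -1.36, -0.68 and -0.78. After GC correction the medians were 0.53, -0.14 and -0.10, against 0.36, -0.01 and 0.13 over all gene bodies. With the block 40 of 79 start windows were called lower, against 1.2% of all windows.

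The germline experiment was compared with cyst tumours in a single fit of 12 libraries. For the difference of IP over input between tumour types, limma called 0 of 25946 bins in either direction (0%), with 721 higher and 395 lower in germline at an unadjusted p under 0.05. edgeR called 0, with 505 and 817, and DESeq2 called 0, with 344 and 634. No bin was thus shown to differ, and the signal at the en bin and at regulator start sites was not shown to be particular to the germline tumour.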

How the data were processed

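Per the file headers, the authors deposited 1 coverage signal value per library for each window of 40 bp, taken every 20 bp. Bowtie2 2.4.5 and the build dm6 are named in the submitters' processing notes. Read filters and the roles of these tools were not given in the sources used here. All values above 0 (100%) equalled a whole number of steps of their library within 0.01, and fragments per 20-bp step were solved from the windows with 0 negative values. The deposited scaling to an autosomal median of 1 takes out depth, and with it any change in the total amount of the mark.

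Fragments were summed over 5-kb bins, protein-coding gene bodies and windows of 500 bp to each side of annotated starts. Features averaging at least 10 fragments in the fitted libraries were tested with limma 3.58.1 in R 4.3.3 (with trend) on log2(signal + 0.1), a scale that understates changes of low features. Calls needed a Benjamini-Hochberg adjusted p under 0.05 and a fold over 1.5. edgeR 4.0.16 (quasi-likelihood) and DESeq2 1.42.0 on the recovered fragment counts were alternatives, as were other pseudocounts, filters, scalings, bin widths, array weights, a replicate block, a correction of log2 values by a lowess curve on GC content (fraction 0.3) and leaving out each replicate. Other steps used Python 3.11.15, numpy 2.4.6, pandas 2.3.3, scipy 1.17.1, statsmodels 0.14.6 and matplotlib 3.10.9. The models were tested on simulated data with 200 features changed. For start windows changed by 1 on the log2 scale, limma called 0.5% without the block and 8.5% with it. Changed by 2, it called 89% in both fits. At a change of 1 it called 54.5% and 38.5% of 5-kb bins and 57.5% and 58.5% of gene bodies. Counts of 0 called, above all for start windows, therefore do not show that the mark was absent.

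Per the labels' protocols, an input and the IP of its number are portions of a single chromatin preparation, which is the source of the pairing. Their deviations from the mean of their group had a Pearson correlation of 0.44, 0.51 and -0.11 over 5-kb bins and 0.34, 0.32 and -0.09 over gene bodies in replicates 1, 2 and 3. Flow cells are named in the labels.

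The members, gene lists, regions and tests were chosen with earlier results of these data known. Genes named are the 12 highest and 6 lowest bodies past 1.5-fold in each replicate with a mean of 20 or more fragments, a fixed set of Hox, segmentation, testis and housekeeping genes, and the marker genes. Regulators at start sites, opa, unpg and the motifs were added after their values were seen. Bins named are those past the threshold in each replicate and the longest runs. 1 listed symbol, nos, was matched as nanos. Sequences are from RefSeq.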

Additional observations from a re-analysis of the deposited data

Results flagged for a closer look

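Median log2 IP over input was above 0 in all 3 germline replicates and below 0 in all 3 cyst replicates for 3 chromosome arms. On arm 2L the germline mean was 0.048 and the cyst mean -0.024. On arm 2R they were 0.10 and -0.017, and on arm 3R 0.11 and -0.023. The side of 0 depends on the scaling of each library. Over all bins the median was 0.17, -0.017 and 0.022 in germline replicates 1 to 3 and -0.052, 0.0017 and -0.00021 in cyst replicates. Relative to all bins, germline 2L was -0.042, 0.023 and -0.010, so its sign differed between replicates. By the same measure 2R was 0.034, 0.034 and 0.067, and 3R 0.076, 0.040 and 0.034. The Hox gene lab had a germline mean over its body of 0.23, with values from 0.03 to 0.47, and a cyst mean of -0.09, with values from -0.13 to -0.01. Over all gene bodies the medians were 0.36, -0.04 and 0.12 in germline replicates 1 to 3 and 0.04, 0.11 and 0.08 in cyst replicates. Germline replicate 3 of lab, at 0.03, thus lay below the median of all gene bodies. In each case every germline replicate lay on 1 side of 0 and every cyst replicate on the other; the difference itself was not tested for these values.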

How the results depend on the processing

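Calls over bins depended on the pairing and on GC content. Without the replicate block, limma, edgeR, DESeq2 and each other scaling, pseudocount, filter and left-out replicate called 0 bins in the 5-kb fits, except array weights, whose fit stopped before converging, with 68 higher and 868 lower. With the replicate block the counts were 12 higher and 381 lower; with block and scaling to the median of all bins 3 and 315; with edgeR and block 15 and 395; with 10-kb bins and block 51 and 424; with 25-kb bins and block 9 and 133; with 25-kb bins, block and GC correction 16 and 1. Leaving out each replicate under the block gave 20 to 150 higher and 562 to 788 lower. Over gene bodies edgeR with the block called 20 higher and 400 lower, DESeq2 called 2 lower, and the block without each replicate 0 to 231 higher and 0 to 298 lower, the calls coming without replicate 3. Over start windows the block gave 2 higher and 164 lower, the block with median scaling 2 and 70, edgeR with the block 17 and 155, and leaving out replicates under the block 0 to 6 and 0 to 265. For germline minus cyst, array weights called 3039 higher and 2986 lower.

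GC correction moved the median of chromosome 4 to -0.053 and of the Y chromosome to 0.16, the mean of medians over regulator start windows to 0.18 and over spermatid start windows to 0.19, and the count of regulator windows with IP above input to 12. Leaving out replicates gave 41 to 62 such windows and 42 to 58 bodies. The Spearman correlation between replicates 1 and 2 became 0.26 with GC correction and 0.53 with 25-kb bins. Between 1 and 3 it was 0.57 with 10-kb bins, 0.027 with GC correction, 0.68 with 25-kb bins and 0.23 with both. Between 2 and 3 it was 0.20 with GC correction.

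Bins past the threshold on the high side in each replicate numbered 0 with 10-kb bins, 52 (1 run) with GC correction, 0 with a pseudocount of 0.5, 632 (67 runs) at a threshold of 0.3, 0 at a threshold of 1, and 5 to 309 (0 to 17 runs) without each replicate. On the low side they numbered 135 (19 runs), 4 (0 runs), 109 (16 runs), 1485 (242 runs), 47 (5 runs) and 482 to 893 (64 to 121 runs) under the same settings. For named genes, 244 of 255 alternatives moved the value by less than 1 SD of its replicates, but most of these could not have done otherwise. Leaving out a replicate cannot shift the mean of the replicates by 1 SD, so those alternatives do not test stability. Under scaling to the median of all bins, 51 values stayed within 1 SD. Under GC correction 11 values moved by more than 1 SD and 40 did not. The edgeR fits with block, median scaling, blocked fits without a replicate, blocked or corrected wider bins, counts of regulators under alternatives, the low-side bins and the inv and en region were added after the data were seen. The cause of each change was not tested. Depth limits replicate 1, with a median counting error of 0.26 per 5-kb bin.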
